A study of Mus musculus with 35 samples.

Results

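The regions described here were open in wild-type blood stem and progenitor cells of week-old mice and were called in neither peak list of mice lacking the receptor for type I interferon. A region is a stretch of touching or overlapping ATAC-seq peaks of a list on chromosomes 1 to 19 and X. A member is a region of P7 wild-type HSCs that overlapped a region of P7 wild-type HPCs by at least 1 bp and overlapped no region of P7 knockout HSCs or P7 knockout HPCs. Of the 45615 regions of P7 wild-type HSCs, 41160 were shared with wild-type HPCs, and 1249 of these were members. Without chromosome 16, which carries Ifnar1 and Ifnar2, 1194 members were left. The 12 lists of the series together covered 144742 regions. Members were chosen by their calls in the 4 P7 lists, so their strength there and their absence from the knockout lists are given as descriptions.

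ATAC-seq maps open chromatin with the Tn5 transposase, and 35 mouse libraries on the B6 background gave 12 pooled peak lists, 1 per group. The 4 lists of the second set came from animals at postnatal day 7 (P7): wild-type haematopoietic stem cells (HSCs; 3 libraries), wild-type progenitors (HPCs, titled 48+LSK; 3), and HSCs (2) and HPCs (3) of the genotype labelled Infnar_KO, called the knockout here. The 8 lists of the first set came from HSCs of the fetus (E16.5; 3), of P14 (3) and of adults (8 weeks; 5), and HPCs of the fetus (3), of P7 (3), P14 (2) and P21 (2) and of adults (3). Titles of the adult libraries carry WT, and the other libraries of the first set carry no genotype label. The labels do not say which receptor subunit was deleted, how, or whether animals were pooled. The title of 1 knockout HPC library ends in the code U3 of a wild-type library. In the first set, 12 of 24 libraries name the list of another group in their description, including every library of the P21 list and of both P14 lists, so those lists are placed by their own names.

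With 1 list per group there is no spread between replicates and no test between groups. Ranges after shares are exact Clopper-Pearson 95% intervals for counting error alone. They do not measure spread between animals, since regions of 1 pooled list are not replicates. Reads without molecular identifiers are also not independent. Missing means that no peak was called, which need not mean closed chromatin, and fewer cells with an open site cannot be told apart from a less open site in each cell. Read depth is unknown, and the list lengths differed: 45615 regions in wild-type HSCs, 66044 in wild-type HPCs, 42459 in knockout HSCs and 58567 in knockout HPCs. The 8 lists of the first set were longer, from 73287 regions (P14 HSCs) to 91043 (P14 HPCs). Their lowest -log10 p values were 1.0 to 1.06, against 2.06 to 2.12 in the second set. Calls in the first set and in the second are therefore not like for like. Of 5 HPC marker genes, 4 had a region at a promoter in each HSC list and 5 in each HPC list, the gene without one being Cd48. Of 9 HSC marker genes, 4 to 6 had one, and those without one in any of the 4 lists included Mecom and Slamf1. Of 22 genes marking lymphoid, erythroid, macrophage, stromal, endothelial and liver cells, only Cd3g had one, in wild-type HPCs.

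Type I interferons signal through a receptor made of Ifnar1 and Ifnar2. The kinases Jak1 and Tyk2, bound to the receptor, phosphorylate transcription factors that join Irf9 and bind a DNA element, the interferon-stimulated response element (ISRE), at the promoters of antiviral genes. In blood stem cells this pathway is known for driving quiescent cells into cycle and for a low level of activity without infection.

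The starts of both receptor genes were called open in the knockout lists. The region over the start of Ifnar1 (mm10 chr16:91484815-91485678) had a strength, the -log10 p of the authors' peak caller, of 653 in wild-type HSCs, 797 in wild-type HPCs, 378 in knockout HSCs and 794 in knockout HPCs. The 3 regions that wild-type HSCs had within 10 kb of Ifnar2, and the 3 within 10 kb of Irf7, the transcription factor that amplifies interferon output, were also called in the other 3 P7 lists. None of these was a member. A weak member farther off had Ifnar2 as its nearest gene, at 39588 bp (13.6 in wild-type HSCs and 40.9 in wild-type HPCs), and was in none of the 8 lists of the first set.

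Promoter sequences are shown for members that overlap a promoter and hold the letters of an ISRE core, because this element links such a promoter to the deleted receptor in the textbook pathway. Promoter windows are RefSeq's on GRCm38.p6 and run from 250 bases before to 50 after a gene's start. The 250 bases before the start of 4 genes are printed 5′ to 3′ on the strand of the gene, with every match to the ISRE core (GAAA, any 2 bases and GAAA again), on either strand, in capitals. They lie at chr4:156200819-156201068 (minus strand, Isg15), chr5:120907526-120907775 (minus strand, Oas1a), chr11:58183593-58183842 (plus strand, Gm12250) and chr10:94944846-94945095 (minus strand, Plxnc1).
Isg15: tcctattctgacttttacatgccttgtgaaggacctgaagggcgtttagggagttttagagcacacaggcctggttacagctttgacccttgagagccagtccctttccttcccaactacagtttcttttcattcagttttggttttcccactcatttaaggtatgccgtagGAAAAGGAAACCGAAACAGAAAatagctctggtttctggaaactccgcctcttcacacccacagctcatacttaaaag
Oas1a: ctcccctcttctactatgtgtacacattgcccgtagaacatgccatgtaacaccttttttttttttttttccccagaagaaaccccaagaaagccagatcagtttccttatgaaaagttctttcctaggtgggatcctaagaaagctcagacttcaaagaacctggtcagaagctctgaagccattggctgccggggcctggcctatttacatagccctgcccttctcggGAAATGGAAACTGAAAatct
Gm12250: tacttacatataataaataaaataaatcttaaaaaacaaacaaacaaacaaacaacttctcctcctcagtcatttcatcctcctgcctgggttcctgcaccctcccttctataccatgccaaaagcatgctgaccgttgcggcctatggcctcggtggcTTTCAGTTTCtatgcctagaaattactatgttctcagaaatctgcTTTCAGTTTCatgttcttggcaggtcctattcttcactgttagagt
Plxnc1: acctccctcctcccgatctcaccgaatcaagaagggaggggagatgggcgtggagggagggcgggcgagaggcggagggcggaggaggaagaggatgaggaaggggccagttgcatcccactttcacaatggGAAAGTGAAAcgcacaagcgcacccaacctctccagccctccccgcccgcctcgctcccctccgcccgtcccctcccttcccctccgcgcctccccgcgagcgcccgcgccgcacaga

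Isg15, which encodes a ubiquitin-like protein, has 3 overlapping matches, the first from 78 to 69 bases before the start and 35 bp from the summit of the member. Oas1a, which encodes an RNA-sensing oligoadenylate synthetase, has 2, beginning 20 bases before the start. Gm12250, which encodes an immunity-related GTPase also called Irgb10, has 2 on the opposite strand, and the summit of the member lay on the first of them, 91 to 82 bases before the start. Plxnc1, which encodes a semaphorin receptor and is not in the list of interferon genes used here, has 1, from 118 to 109 bases before the start. Trim12a, a tripartite motif gene, has 1 match just after its start. The matches of these 5 promoters lay inside the members.

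Tmc7, a gene of the transmembrane channel-like family, is shown to set these letters beside a match within a purine-rich run (chr7:118584877-118584936, minus strand).
Tmc7: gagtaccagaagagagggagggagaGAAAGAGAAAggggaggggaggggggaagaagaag

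Members overlapped 85 promoter windows of 76 genes, and 8 windows (9.41%, 4.15 to 17.7) held the ISRE letters. Besides the 6 genes above, these were the windows of Clec4d and Gm38623, whose matches lay outside the member. The share was 3.46% (3.27 to 3.67) of all 32619 windows and 2.76% (2.47 to 3.07) of the 12145 windows overlapped by wild-type shared regions called in both knockout lists. It was 3.69% (2.20 to 5.77) of the 488 windows overlapped by such regions of the weakest 25% of the wild-type HSC list. The interval of the members overlaps the last of these and excludes the others. Of 31 windows overlapped by regions in both knockout lists and neither wild-type list, 0 held the letters, which allows a share of up to 11.2%.

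Each of the 6 other motifs searched, on both strands and counted separately where matches overlap, was held by between 0 and 8 of the 85 windows. The letters TTCNNNGAA, the site of Stat dimers, were in 9.41% of windows overlapped by members and 7.17% of those overlapped by regions of the weakest 25% called in both knockout lists. TGANTCA, the AP-1 site, was in 8.24% and 5.53%, and CACGTG, an E-box, in 7.06% and 11.1%. ACTTCCG, an ETS site, was in 5.88% and 8.61%, and TGACGTCA, the cyclic AMP response element, in 1.18% and 2.46%. The NRF1 site was in 0 of 85 (up to 4.25%) and 2.05%. The interval of the members covered the other share for each of the 6.

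Members near interferon-stimulated genes included some of the strongest. The strength of the Gm12250 promoter region (chr11:58183498-58184276) was 80.3 in P7 wild-type HSCs and 105 in wild-type HPCs. In the first set it was 75.4 in P14 HSCs, 77.2 in adult HSCs, 24.6 in P7 HPCs, 66.4 in P14 HPCs, 29.0 in P21 HPCs and 61.8 in adult HPCs. It was called in every postnatal list apart from those of the knockout and in neither fetal list.

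The Isg15 promoter region (chr4:156200700-156200990) had the same pattern of calls. Its strength was 34.0 in P7 wild-type HSCs and 28.7 in wild-type HPCs, and in the first set ran from 14.1 in P21 HPCs to 75.7 in adult HSCs. The regions on either side of it, 50.7 and 52.0 in wild-type HSCs, were called in all 12 lists, at 33.7 and 28.1 in knockout HSCs.

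A region inside Iigp1 (chr18:60382373-60382833), an immunity-related GTPase gene, reached 81.9 in wild-type HSCs and 36.4 in wild-type HPCs. It was called in all 8 lists of the first set, from 20.6 in fetal HPCs to 269 in adult HSCs. A region inside Samd9l (chr6:3386646-3386967), an antiviral and growth-restraining gene, reached 54.4 and 73.8, and in the first set 115 in P21 HPCs to 390.2 in adult HSCs. Both were thus called from the fetus on and missing from the knockout lists alone.

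A region in Ifit1bl2 (chr19:34633332-34633823), within 10 kb of Ifit1, which encodes an antiviral RNA-binding protein, reached 35.0 and 58.6 and was in all 8 lists of the first set. The Oas1a promoter region (chr5:120907416-120907875) reached 33.4 and 42.0 and was called in fetal (22.2), P14 (74.3) and adult HSCs (43.7) and in no HPC list of the first set. The Trim12a promoter region (26.6 and 24.5) was in all 8 of those lists. A region inside Fcgr1 (chr3:96284357-96284903), a high-affinity antibody receptor gene picked after its value was seen, reached 57.0 and 64.5 and was in 2 of the 8, P14 HSCs and fetal HPCs.

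Counted over the list of interferon-stimulated genes, the share of members was within counting error of that over all genes. Of 126 wild-type shared regions within 10 kb of these genes, 5 were members (3.97%, 1.30 to 9.02), whereas 3.03% of all wild-type shared regions were. The 5 lay at or within 10 kb of Isg15, Ifit1, Oas1a, Samd9l and Iigp1, while Gm12250, Trim12a, Plxnc1, Tmc7, Clec4d, Gm38623 and Fcgr1 are not in the list and were picked after their values were seen. Of 17 genes of receptor, kinases, Stat and Irf factors, 2 had a member, Jak1 (26.3 in wild-type HSCs) and Ifngr1, the receptor chain for type II interferon (28.2). These were 2 of 56 regions (3.57%, 0.435 to 12.3). Of 35 regions at genes of antigen presentation, 0 were members, which allows up to 8.57%.

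Genes that regulate or mark HSCs had 10 members among 122 regions (8.20%, 4.0 to 14.6), all off chromosome 16. They lay at Hlf (2), Slamf1, Gata2, Prdm16, Hoxa9, Tal1, Lmo2, Fli1 and Cdkn1c. The strongest in wild-type HSCs was in Prdm16 (42.9), a zinc finger gene of stem cell maintenance, and the next in Gata2 (35.6), a transcription factor gene, and near Tal1 (35.4), another. In the first set, all 10 were called in fetal and adult HSCs and P14 HPCs, 9 in P14 HSCs, 8 in fetal and adult HPCs, 7 in P7 HPCs and 6 in P21 HPCs. Among the weakest 25% of the wild-type HSC list, 9 of 31 regions at these genes were members (29.0%), against 12.7% of all shared regions there.

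The other lists held few members. Cell cycle genes had 3 of 53 regions (5.66%, 1.18 to 15.7), at Cdk6 (36.9), the kinase of early G1 phase, Ccnd3 (35.5), a cyclin gene, and Cdkn1b (15.7), an inhibitor of cyclin-dependent kinases. Genes of lymphoid and myeloid priming had 1 of 53, at Notch1 (15.4), and the fetal programme had 0 of 27, which allows up to 12.8%. The intervals of these lists, of the interferon lists and of antigen presentation include 3.03%, and that of the HSC list does not.

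**Figure D1:**
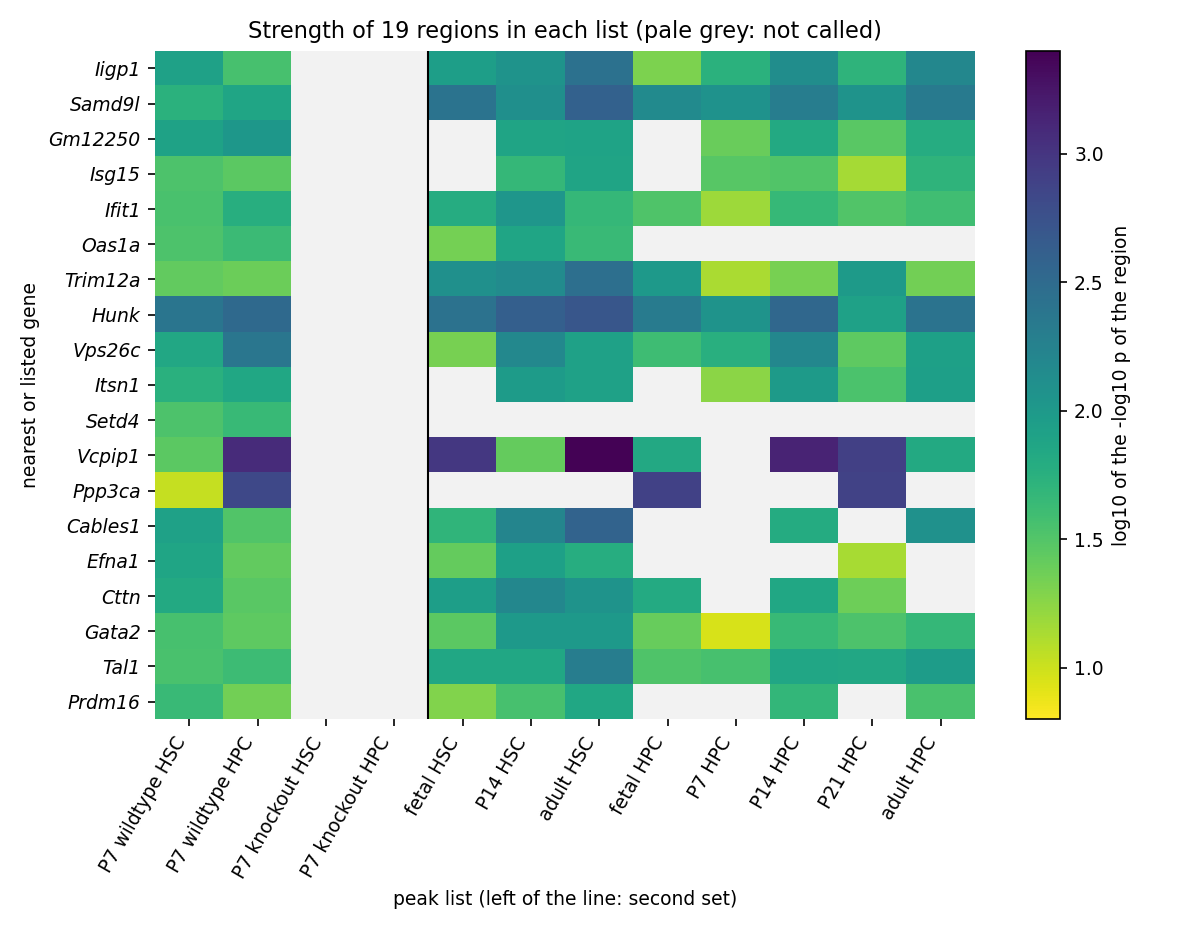
Strength of named members in the 12 lists, as the log10 of the -log10 p of the region (colour), with pale grey where no region was called. The knockout columns are empty by the choice of members, the rows of Gm12250, Isg15 and Itsn1 are also empty in both fetal lists, and that of Setd4 in all 8 lists of the first set.

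Most members were weak. In wild-type HSCs their strength had a median of 26.3 (quartiles 20.7 and 33.9) and ran from 3.19 to 2492, against a median of 92.7 for the 33616 wild-type shared regions called in both knockout lists. In wild-type HPCs the medians were 38.0 and 167. The median fold over the local background in wild-type HSCs was 8.14 and 14.7, and the median width 372 and 620 bp. Ranked within the wild-type HSC list from weakest (0%) to strongest (100%), the median member stood at 11.1%, and 1033 members (82.7%) were in the weakest 25%. Members made up 12.7% of wild-type shared regions there, 1.96% in the next 25%, 0.0893% in the one after and 0.0176% in the strongest 25%.

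Only 4 members were in the upper 50% of both wild-type lists: the Gm12250 promoter, 2 regions of chromosome 16 and a region nearest Col19a1. The last (chr1:24612996-24613236, 241 bp), in a stretch of chromosome 1 known as a nuclear copy of mitochondrial DNA, reached 2492 in wild-type HSCs and 2818 in wild-type HPCs. In the first set it was called in adult HSCs (4803), fetal HPCs (3906), P7 HPCs (10.1), P14 HPCs (2648) and adult HPCs (4195), and missing from fetal HSCs, P14 HSCs and P21 HPCs. Its calls thus also differed between lists of the first set.

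Off chromosome 16, other strong members with a gene within 50 kb were named by Tnfrsf11b, the gene of the decoy receptor osteoprotegerin (92.5), Cables1, a gene of a kinase-binding protein (81.8), and Retreg1, a receptor gene for turnover of the endoplasmic reticulum (80.4). Efna1, an ephrin gene (74.0), Lingo1 (70.5) and Tuba3b, a tubulin gene (67.7), followed. The Tnfrsf11b, Retreg1 and Tuba3b regions were in all 8 lists of the first set. The Cables1 region was in 5, among them adult HSCs (369), P14 HSCs (163) and fetal HSCs (50.4), but not in fetal, P7 or P21 HPCs. The Efna1 region was in fetal (26.0), P14 (84.5) and adult HSCs (60.3) and, of the HPC lists, only in P21 HPCs (13.9).

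Some members were strong in wild-type HPCs and weak in HSCs. A 215 bp region at an end of Vcpip1, a deubiquitinase gene (chr1:9747762-9747976), reached 1194 in wild-type HPCs and 28.8 in HSCs. In the first set it ranged from 26.1 in P14 HSCs to 2434 in adult HSCs and was missing from P7 HPCs. A 178 bp region in Ppp3ca, the gene of the calcineurin catalytic subunit (chr3:136670921-136671098), reached 689 and 10.8, with 785 in fetal HPCs and 775 in P21 HPCs and no call in the other 6 lists of the first set. Others among the strongest in wild-type HPCs were named by Clip2 (583), Mxra8 (168), Nfkb1 (168), a subunit gene of the inflammatory factor NF-kappa-B, Olfr140 (158) and Foxn2 (156).

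**Figure D2:**
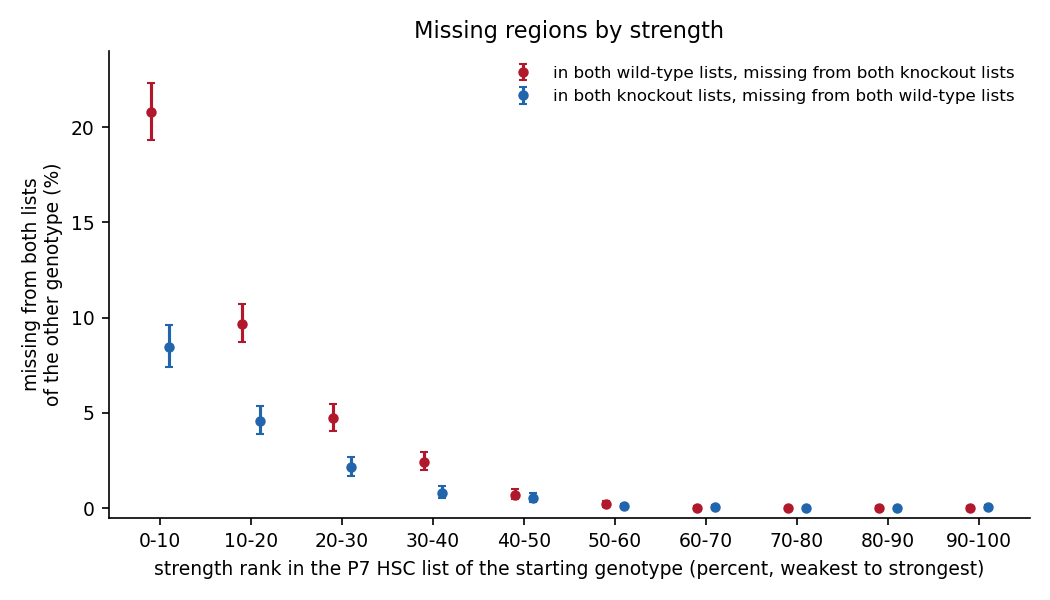
Share of regions missing from both lists of the other genotype (vertical axis, percent, with exact 95% intervals) by strength rank in the HSC list of the starting genotype (horizontal axis). Red points are wild-type shared regions missing from the knockout lists, blue points knockout shared regions missing from the wild-type lists: in the weakest class 20.8% and 8.46%, and at most 0.203% in every class above a rank of 50%.

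The opposite selection, regions in both knockout lists and in neither wild-type list, gave 500 of 38063 knockout shared regions (1.31%), 481 without chromosome 16. Members thus outnumbered it 2.50 to 1. The balance depended on list length: when the 42459 strongest regions were taken from each of the 4 lists, 452 wild-type shared regions were missing from both knockout lists and 610 knockout shared regions from both wild-type lists. Of the 452, 144 overlapped one of the 1249 members. The regions of Gm12250, Samd9l, Fcgr1, Hunk, Vps26c, Itsn1 and Mis18a were among them, while those of Isg15, Iigp1, Ifit1, Oas1a, Trim12a and all 10 at HSC genes were not.

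Absence from the knockout HSC and HPC lists went together. Of wild-type shared regions, 15.6% were missing from knockout HSCs and 5.8% from knockout HPCs. Those missing from knockout HSCs were also missing from knockout HPCs in 19.5% of cases, and those present there in 3.28%. Within the weakest 25% these shares were 24.5% and 14.5%. All of these shares use the calls that define the members and are a description. They were not matched for strength within that 25% or in wild-type HPCs. Of the members, 121 (9.69%) lay within 500 bp of a knockout region and 532 (42.6%) within 5 kb, and the median distance was 6655 bp. At the limit, a member near Chd7 (20.2) ended 1 bp from a knockout region and one near Fam53a (3.19) overlapped its wild-type HPC region by 10 bp, while a region near Atp5mpl (41.0), no member, overlapped a knockout region by 28 bp.

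Lists of the first set, which the choice of members did not use and which are longer, held most members. They held fewer of the members than of comparably weak regions called in both knockout lists, a gap that the choice of regions favours. The P7 HPC list of the first set, whose labels give no genotype, is of the same cell type and age as a pair of lists used for the choice, and it held 819 members (65.6%, 62.9 to 68.2), 778 without chromosome 16, where it held 91.1% of all wild-type shared regions and lacked 8.93%. In the weakest 25% it held 64.7% of members (61.7 to 67.6) and 83.8% (82.5 to 85.0) of the 3377 shared regions called in both knockout lists, called comparison regions below. Members among those 25% were also weaker than the comparison regions there, at a median rank of 8.52%. With comparison regions weighted to the strength of the members in both wild-type lists, a weighting chosen after seeing the data, the share was 73.6%. Thus 430 members were missing from this list too.

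Fetal HSCs held 1031 members (82.5%, 80.3 to 84.6; all wild-type shared regions 95.4%, weighted comparison regions 91.5%). Adult HSCs held 1000 (80.1%, 77.7 to 82.2; 94.6%, 88.7%) and P14 HSCs 1085 (86.9%, 84.9 to 88.7; 98.2%, 96.4%). Among HPCs, the fetal list held 840 (67.3%, 64.6 to 69.9; 92.1%, 82.0%), the adult list 866 (69.3%, 66.7 to 71.9; 92.5%, 77.4%), the P14 list 1024 (82.0%, 79.7 to 84.1; 96.6%, 88.7%) and the P21 list 833 (66.7%, 64.0 to 69.3; 91.3%, 78.2%). In each of the 8 lists the weighted share of comparison regions lay above the interval of the members. Comparison regions were chosen for being called in both knockout lists, and members for being missing from them. This choice itself favours calls of comparison regions in further lists. Weighting by strength in the wild-type lists does not remove that, so no conclusion is drawn from the gap. Without chromosome 16 the shares of members called were 82.5% in fetal and 79.8% in adult HSCs, and 67.3% and 69.2% in HPCs. Where called, members had median ranks between 36.3% (P21 HPCs) and 48.9% (fetal HSCs) of those lists. Wild-type shared regions of any strength called in both knockout lists had median ranks between 75.8% (P7 HPCs) and 79.5% (P14 HPCs).

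**Figure D3:**
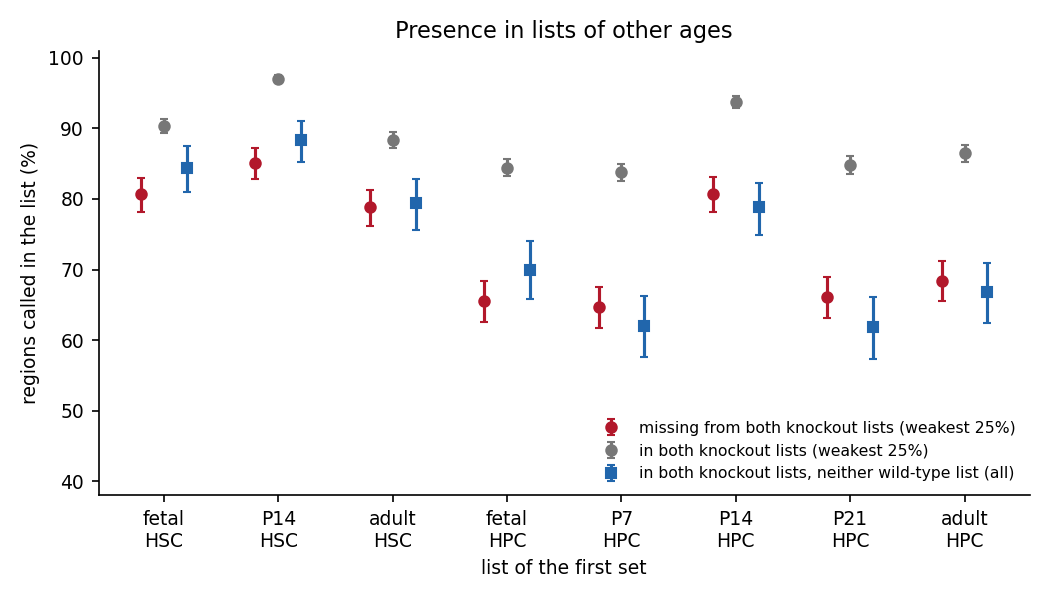
Share of regions called in each list of the first set (vertical axis, percent, not from 0; bars are exact 95% intervals). Members of the weakest 25% (red) lie below comparison regions of the weakest 25% (grey) in all 8 lists, an order favoured by choosing the latter for their knockout calls. The intervals of members and of the 500 regions found in the knockout lists only (blue squares) overlap in all 8.

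Regions found in both knockout lists and neither wild-type list were called about as often as members. Like members, they were chosen for being missing from both lists of the other genotype. P7 HPCs of the first set held 62.0% of them (57.6 to 66.3), fetal HSCs 84.4% (80.9 to 87.5) and adult HSCs 79.4% (75.6 to 82.9). The intervals overlapped those of all members in each of the 8 lists.

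By age, members split between fetus and adult much as comparison regions did, with overlapping intervals. In HSCs 884 members were in both the fetal and the adult list, 147 in the fetal list alone, 116 in the adult list alone and 102 in neither. The fetal part of those in 1 of the 2 lists was 55.9% (49.7 to 62.0), and 57.1% (52.5 to 61.7) in comparison regions of the weakest 25%. In HPCs the counts were 692, 148, 174 and 235, and the fetal part 46.0% (40.4 to 51.6), against 43.7% (39.5 to 47.95). Without chromosome 16 the fetal parts were 56.3% and 46.2%.

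In all, 447 members (35.8%) were called in all 8 lists of the first set and 15 (1.20%) in none. The shares were 62.2% and 0.563% of comparison regions of the weakest 25%, a contrast that their choice by knockout calls also favours. Of the 500 regions found in the knockout lists only, 35.2% were in all 8 and 1.40% in none. The strongest of the 15 lay in Setd4, a methyltransferase gene on chromosome 16 (33.4 and 44.7 in wild-type HSCs and HPCs), at Dpm1, a gene of mannose transfer (30.8 and 51.3), near Mrps23 (27.7 and 73.4), and in Atg2a, an autophagy gene (25.8 and 54.4), and Tex2 (25.5 and 22.0).

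Both adult lists and neither fetal list held 51 members (4.08%, 3.06 to 5.33), against 1.39% of comparison regions of the weakest 25%. More of these comparison regions were called in every list of the first set, which leaves fewer to differ by age. The share in both adult lists and neither fetal list was 2.60% (1.39 to 4.41) of the 500 regions found in the knockout lists only. This interval overlaps that of members. Gm12250 and Isg15 were among the 51 members. The strongest of named genes were a region in Itsn1, an endocytic scaffold gene (56.1 in wild-type HSCs), one in Hrh2, a histamine receptor gene (48.3), and those near Kcnk6, a potassium channel gene (42.2), in Cbx7, a Polycomb gene (36.9), and near Prph (36.2). Both fetal lists and neither adult list held 31 members (2.48%, against 1.69% of those comparison regions and 2.60% of those 500). These 31 were led by regions at Cse1l, a nuclear transport gene (51.3), Hap1 (42.8) and in Card10 (42.5), and near Zfp90 (39.1) and Bloc1s4 (38.4).

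All 6 postnatal lists of the first set and neither fetal list held 19 members (1.52%, 0.918 to 2.37), 17 without chromosome 16, a group picked after its values were seen. It included the Gm12250, Itsn1, Hrh2 and Isg15 regions. The share was 0.711% (0.456 to 1.06) in comparison regions of the weakest 25%, whose interval overlaps. Of the 500 regions found in the knockout lists only, 0 had this pattern, which allows up to 0.735%.

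Members lay at gene ends less often than comparison regions, and about as often as the 500 regions found in the knockout lists only. Ends of protein-coding genes lay within 1 kb of 155 members (12.4%, 10.6 to 14.4), and 20.2% (18.9 to 21.6) of comparison regions of the weakest 25% or 24.9% with weighting. For those 500 regions the share at gene ends was 12.8%, with an interval that overlaps that of members. RefSeq promoter windows were overlapped by 60 members (4.80%, 3.69 to 6.14) and by 11.2% (10.1 to 12.3) of those comparison regions. Gene bodies were overlapped by 57.1% of members, 60.9% of those comparison regions and 58.0% of those 500, introns and exons not being analysed here. Beyond 50 kb of any gene end lay 280 members (22.4%, and 22.9% of those in the weakest 25%). The share was 19.9% of those comparison regions and 24.6% of those 500. The other members were named by 910 genes, 857 of which named a single member.

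At gene ends the strongest members after Gm12250 and Efna1 lay at Cttn, the gene of the actin-binding cortactin (65.8), Dock8, an exchange factor gene of immune cells (53.7), Cse1l (51.3) and Hacd4 (46.7). The Dock8 and Hacd4 regions were in all 8 lists of the first set. The Cttn region was in 6, reaching 156 in P14 HSCs, and was missing from P7 and adult HPCs.

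Chromosome 16 had the highest share of members, though its interval overlapped those of other chromosomes: 55 of 1404 wild-type shared regions (3.92%, 2.96 to 5.07), against 3.0% over all the others. Chromosomes 10 (3.88%) and 3 (3.81%) were close, and the lowest was chromosome 11 (2.38%, 1.88 to 2.97). Within 5 Mb of the middle of Ifnar1, 17 of 263 were members (6.46%, 3.81 to 10.1), and on the rest of the chromosome 38 of 1141 (3.33%). In the opposite selection, 9 of 241 knockout shared regions within 5 Mb were missing from both wild-type lists, and 1.31% over all chromosomes. Within 1 Mb of the middle of Ifnar1, 8 of 81 wild-type shared regions were members (9.88%, 4.36 to 18.5). In the opposite selection, 2 of 73 knockout shared regions within 1 Mb were missing from both wild-type lists.

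**Figure D4:**
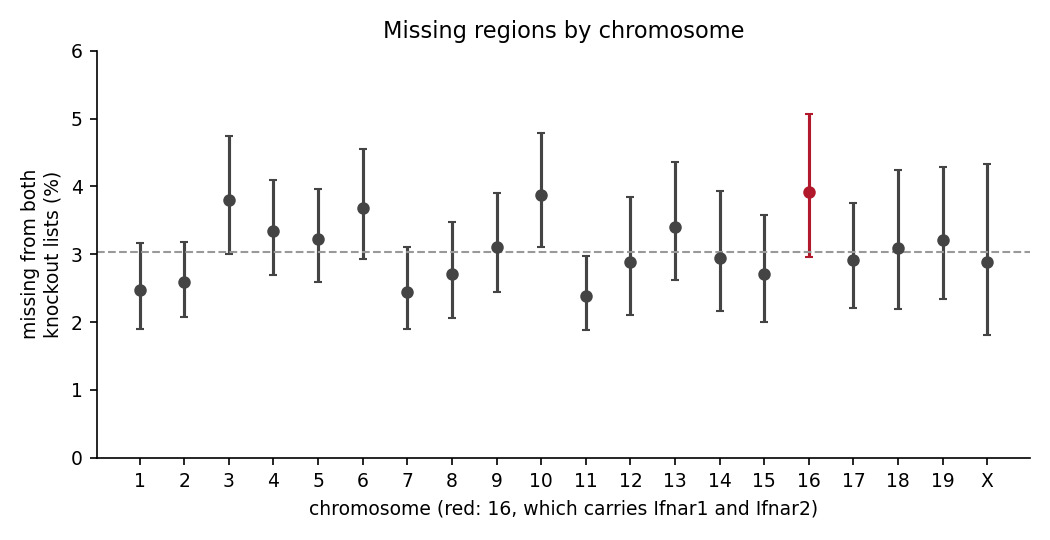
Share of wild-type shared regions that were members on each chromosome (vertical axis, percent; bars are exact 95% intervals). The dashed line is the share over all chromosomes, 3.03%, and chromosome 16 (red) lies at 3.92%.

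The strongest members of chromosome 16 lay near the receptor genes. The region nearest Hunk, a kinase gene (chr16:90349621-90350190), reached 248 and 322 in wild-type HSCs and HPCs, and was in all 8 lists of the first set, from 81.7 in P21 HPCs to 509.7 in adult HSCs. A region near Vps26c, an endosomal sorting gene (chr16:94485069-94485468), reached 69.1 and 237 and ranged from 21.4 in fetal HSCs to 156 in P14 HPCs. The Itsn1 region (chr16:91763981-91764410) reached 56.1 and 70.2, and one near Mis18a, a centromere gene (chr16:90676684-90677612), 53.6 and 70.7. These 4 lay within 5 Mb of Ifnar1, and the fifth, in Ostn (49.2 and 54.9), lay 64.1 Mb from it. Deletion of the receptor and other differences of the chromosome carried along with it cannot be told apart here.

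**Figure D5:**
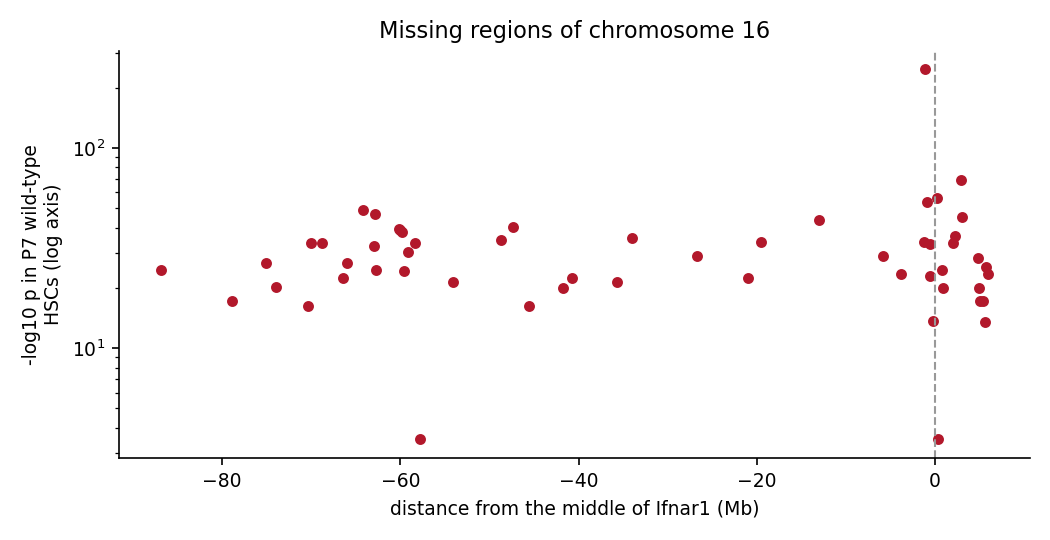
The 55 members on chromosome 16 by distance from the middle of Ifnar1 (horizontal axis, Mb) and by strength in P7 wild-type HSCs (-log10 p, log axis). The Hunk region at 248 stands highest, 1.15 Mb before Ifnar1.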

How the data were processed

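ATAC-seq libraries of 12 groups were deposited as 12 pooled peak lists in narrowPeak format. The authors used Bowtie2 and MACS2 on mm10 (GRCm38), per the submitters' processing notes; their versions, settings, pooling and read depths are not stated. Each deposited peak has a fold (ratio) over the local background and a -log10 p-value; the authors' score and -log10 q-value were not used. These values describe and rank regions within 1 list.

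Touching peaks were merged per list, and the highest -log10 p among its peaks served as the strength of a region (Python 3.11.15, pandas 2.3.3, SciPy 1.17.1). Regions were shared at 1 bp of overlap and named by the nearest end of a protein-coding gene within 50 kb (RefSeq, GRCm38.p6, 21631 genes, without strand or exons). Gene lists counted regions within gene bodies and 10 kb on each side, and 150 of 153 listed genes matched by symbol. The weakest 25% are those of the P7 wild-type HSC list; the weighting used 10 classes of strength in each wild-type list. The members, lists and motifs were chosen with earlier results of these data known. Named genes are the strongest members of each class described, every member near a listed gene, and regions near Ifnar1, Ifnar2, Isg15, Irf7 and Hunk; predicted genes with numbered names were left out, except where stated. The code of the selection was checked on copies of the wild-type lists from which randomly picked shared regions had been removed. Such a check tests the code alone, not the effect of noise or read depth.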

Additional observations from a re-analysis of the deposited data

How the results depend on the processing

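Of 86 recomputed values of the main results, 61 stayed within the interval of the value given (for counts, within 1.5 times) and 25 did not. With the upper 50% of each wild-type list, 4 members were left (0.019% of shared regions), at a median rank of 73.2%. Of these 4, 25% lay at a gene end, 100% were called in P7 HPCs, 50% in fetal HSCs, 100% in adult HSCs, 75% in fetal and 100% in adult HPCs. Members were then 0.28% of chromosome 16 regions, and 0 lay near the listed interferon-stimulated genes, which do not include Gm12250. In the opposite selection, 4 regions were in the upper 50% of both knockout lists and in neither wild-type list. At equal list lengths, 452 regions met the rule (1.35%), of which 144 overlapped one of the 1249 members and 308 were new. The 452 had a median rank of 19.7%. Of them, 81.9% were called in P7 HPCs, 85.0% in adult HSCs, 75.9% in fetal and 86.9% in adult HPCs. Regions meeting the rule were then 2.33% of chromosome 16 regions. Counting a knockout region within 500 bp as present gave 2.74% of shared regions. Starting from the HPC list, the median rank, there in the HPC list, was 17.7%. A gene end window of 2 kb gave 18.3%, and windows of 50 kb held 9 members near interferon-stimulated genes. Missing from P7 HPCs of the first set in place of both knockout lists, an alternative chosen after seeing the data, were 3677 shared regions (8.93%). The cause of these shifts was not tested, other than that stricter lists hold fewer regions. Leaving out replicates was not run, since each group has 1 pooled list. No paired analysis was possible because the lists carry no replicates. Read depth is unknown, so a weak region missing from a list may lie below its detection limit.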

Other observations

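A few genes named several members. Tec, a kinase gene of blood cell signalling, named 3 of its 6 wild-type shared regions, Plekhd1 3 of 3, Dscam, on chromosome 16, 3 of 4, Foxn3 and Lpin2 3 of 8 each, and Fgd2, an exchange factor gene, 3 of 10. The strongest of these was at Tec (45.5 in wild-type HSCs). Another 47 genes named 2 members each. These genes were picked after their values were seen, and members of a gene share their libraries.

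Among the 500 regions in both knockout lists and neither wild-type list, the strongest 2 of named genes were nearest Mid1 (264 in knockout HSCs, in none of the 8 lists of the first set) and at Zfp932 (244, in all 8). The next were nearest Psg22 (65.0) and in Vps26c on chromosome 16 (54.9 in knockout HSCs and 221 in knockout HPCs, called in P21 HPCs of the first set). Vps26c also named 2 members. The fifth lay at Hoxa5, a homeobox gene (52.6 in knockout HSCs and 25.4 in knockout HPCs). It was called in fetal (74.8), P14 (97.5) and adult HSCs (50.6) and in fetal HPCs (21.1) of the first set.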
